A study of Homo sapiens with 8 samples.

Results

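TUFM, an elongation factor of mitochondrial translation, was examined together with some other soluble factors of that machinery and with the mitochondrial chaperonin. The arrays were of HuCCT1 cells, an established human intrahepatic cholangiocarcinoma cell line. The genes were chosen by name, for their role and with earlier results of these data known, as 10 of the 34809 gene names on the array. They are the initiation factors MTIF2 and MTIF3, the elongation factors TUFM, TSFM and GFM1, the release factors MTRF1 and MTRF1L, the recycling factor GFM2, and the chaperonin subunits HSPD1 and HSPE1. All 10 were well above background on all 8 arrays and were among the 20464 genes that could be tested.

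The cells carried a vector named shControl or shNontarget, which the labels class as control, or a vector named shBEX2-1 or shBEX2-2, which they class as BEX2 knockdown. Each of the 4 vectors had 2 arrays. The hairpins against BEX2 were expressed from a retroviral vector, and the study describes a hairpin against luciferase as its control, but the sources used here do not say which control vector carried it. All 4 groups share the parental line, and nothing says whether separate cultures stood behind the arrays of a vector. The deposited names give each replicate number a day of its own, shared by the 4 vectors, without saying what was done on that day. The p-values thus measure the spread between arrays, which may be technical. The study took TUFM and HSPD1 up as candidate partners of the BEX2 protein from a pull-down screen. For TUFM it also reported clear binding by immunoprecipitation, and lower tumorigenicity and higher gemcitabine sensitivity after TUFM knockdown. It reported higher oxygen consumption after knockdown of BEX2, TUFM or HSPD1, and of IVD or PECR, which were further candidates of that screen. Knockdown of BEX2 and TUFM together gave a rise similar to that of either alone. The arrays bear on a narrower question, which is whether the mRNAs of these genes and of their machinery differed in cells with BEX2 knocked down.

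Mitochondria translate the few mRNAs of their own genome on a ribosome of their own, with factors that are encoded in the nucleus, made in the cytosol and imported. MTIF2 and MTIF3 start translation, TUFM brings aminoacyl-tRNA to the ribosome, TSFM recharges TUFM with GTP, GFM1 moves the ribosome along the mRNA, MTRF1 and MTRF1L release the finished chain, and GFM2 helps to split the ribosome afterwards. HSPD1 (Hsp60) forms a barrel in the matrix that folds imported proteins, and HSPE1 (Hsp10) is its lid.

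Some facts of the whole experiment touch every value. All arrays lay on 1 slide and were read in 1 scan, and since slide row 1 held the control arrays and row 2 the BEX2-knockdown arrays, position and group cannot be told apart. The 75th percentile of the processed intensity, by which each array was scaled, was 667 to 838 on control arrays and 441 to 631 on BEX2-knockdown arrays. The shNontarget arrays stood apart from each other. They were more than 1 apart (log2) in 34.9% of all genes, while for the arrays of shControl, shBEX2-1 and shBEX2-2 that share was 1.76%, 1.57% and 0.562%. The log2 fold changes of the 10 genes are therefore also given with shControl as the only control. The biliary markers KRT7, KRT8, KRT18, KRT19 and EPCAM lay between 3.37 and 8.66 above the 75th percentile on the log2 scale on every array, while SOX9 lay between -1.22 and -0.57. Of 8 markers of leukocytes, endothelium, fibroblasts and hepatocytes, 4 passed the filter on dim probes, with values between -5.36 and -0.53. BEX2 had intensities of 71.0 and 55.7 in shControl cells, 115 and 48.8 in shNontarget cells, 11.9 and 11.1 in shBEX2-1 cells and 20.4 and 26.0 in shBEX2-2 cells. Every BEX2-knockdown array thus read below every control array for the targeted gene (log2 fold change -1.63, limma adjusted p = 0.0116), but both shBEX2-1 readings were not well above background, and with normexp background correction the estimate was -0.45 and not called (limma, adjusted p = 0.0796). In shBEX2-2 cells alone BEX2 was not called against both control vectors (-1.32, limma adjusted p = 0.0812), nor in the F test over the 4 vectors (limma, adjusted p = 0.0741).

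None of the 10 genes passed the threshold of an adjusted p of 0.05 between the 4 BEX2-knockdown and the 4 control arrays (limma with Benjamini-Hochberg adjustment over all 20464 genes), where 12.9% of all tested genes did. At an unadjusted p under 0.05 limma counted HSPE1 and MTRF1L, and 27.8% of all tested genes. The log2 fold changes of the 10 genes ran from -0.40 for MTRF1 to 0.74 for HSPE1, with 6 above and 4 below zero and a median of 0.12, and the median of all tested genes was 0.027. Without overlap between the 4 control and the 4 BEX2-knockdown arrays there was 1 gene of the 10, MTRF1L, which read higher by its brightest probe. Its other probe read lower without overlap. Of all tested genes 11.4% were higher without overlap and 10.6% lower.

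**Figure D1:**
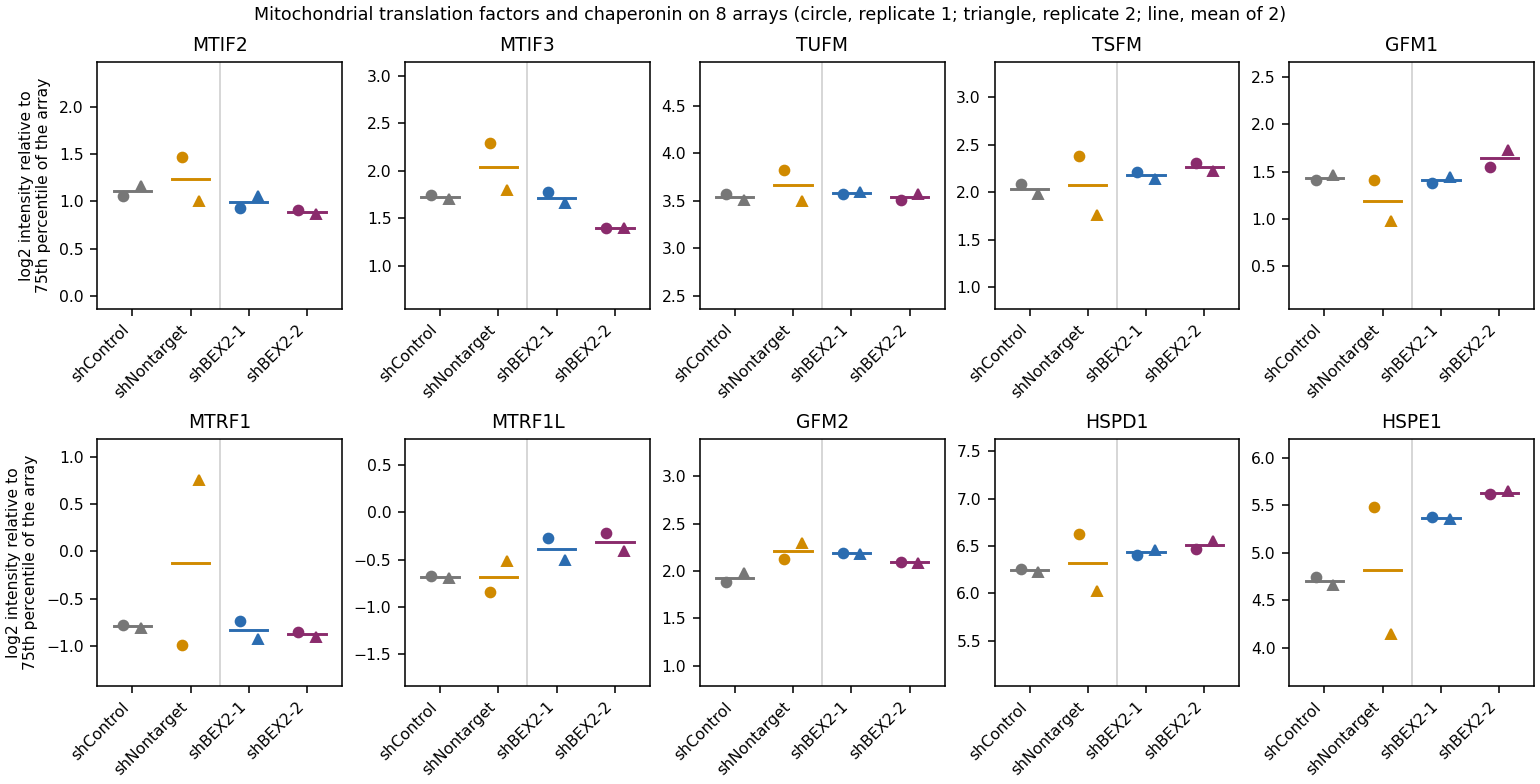
The vertical axis of each panel is the log2 intensity relative to the 75th percentile of the array, over the same span of 2.6 in all panels, and the horizontal axis gives the 4 vectors with 2 arrays each (circle, replicate 1, triangle, replicate 2, line, mean). TUFM is nearly level across vectors, HSPE1 is higher on the BEX2-knockdown arrays than on the shControl arrays, and the shNontarget arrays lie far apart for HSPE1 and MTRF1.

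TUFM was read by the probe A_23_P9582, which the array annotation places on chromosome 16 of hg19 from 28855075 to 28855134. Relative to the 75th percentile of its array, TUFM intensity was 11.9 and 11.4 in shControl cells, 14.2 and 11.3 in shNontarget cells, 11.9 and 12.04 in shBEX2-1 cells, and 11.4 and 11.9 in shBEX2-2 cells. The shNontarget replicate 1 array was the highest, the other 7 lay between 11.3 and 12.04, and the groups overlapped. The log2 fold change was -0.044 (limma, standard error 0.12, adjusted p = 0.852), with a 95% confidence interval from -0.32 to 0.23. The arrays read bulk RNA, in which fewer cells with a transcript and less of it per cell cannot be told apart. With shControl as the only control the sign turned, at 0.016 (limma, adjusted p = 0.891), and the interval narrowed to between -0.16 and 0.19.

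Before scaling, the TUFM intensity was 7549 to 10611 on control arrays and 5241 to 7490 on BEX2-knockdown arrays, without overlap, so that its level value rests on the division by a 75th percentile that was itself lower on the BEX2-knockdown arrays. Under quantile normalization the log2 fold change was -0.12 (limma, adjusted p = 0.450), and with the median of the array in place of the 75th percentile it was -0.024 (limma, adjusted p = 0.957). Neither scaling called TUFM.

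TUFM varied little among the 8 arrays as a whole. Its standard deviation over the arrays was 0.11 on the log2 scale, and 1.55% of all tested genes had a smaller one. Among the 838 genes within 0.5 of its mean log2 level, 2.15% had a smaller standard deviation, so that TUFM was steady for its brightness as well. GFM2 came next of the 10 genes, with 0.13 and 3.40% of all genes below it. HSPE1 (0.55) and MTRF1 (0.58) varied more than the median gene, whose standard deviation was 0.37. These are descriptions of the 8 arrays, and no test was made of them.

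The genes whose levels followed TUFM most closely over the 8 arrays were YARS2 (Pearson r = 0.990), which encodes the mitochondrial tyrosyl-tRNA synthetase, LOC730098 (0.982) and UBA2 (0.981), a subunit of the SUMO-activating enzyme. HAPLN3 was the most opposed (-0.991). In YARS2, LOC730098 and UBA2 the shNontarget replicate 1 array was the highest of the 8, as it was in TUFM, and in HAPLN3 it was the lowest. The likeness was computed over 8 arrays that share a slide and a scaling and was picked as the extreme of all tested genes. None of the 4 genes was called by limma between BEX2-knockdown and control arrays, with adjusted p-values from 0.650 to 0.832.

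The partner factors of TUFM in elongation had small positive estimates over both sublines. TSFM relative intensity was 4.27 and 3.94 in shControl cells, 5.23 and 3.38 in shNontarget cells, 4.65 and 4.41 in shBEX2-1 cells, and 4.94 and 4.67 in shBEX2-2 cells. The BEX2-knockdown arrays were all above the shControl arrays and all between the shNontarget arrays. TSFM differed by 0.17 on the log2 scale (limma, standard error 0.15, adjusted p = 0.516). Against shControl alone TSFM read 1.17-fold higher in shBEX2-2 cells (log2 fold change 0.23, limma standard error 0.076, adjusted p = 0.0434) and 0.14 on the log2 scale in shBEX2-1 cells (limma, adjusted p = 0.166). GFM1 relative intensity was 2.65 and 2.76 in shControl cells, 2.66 and 1.97 in shNontarget cells, 2.60 and 2.72 in shBEX2-1 cells, and 2.92 and 3.32 in shBEX2-2 cells. The shBEX2-2 arrays were the highest and the shBEX2-1 arrays lay among the control arrays. GFM1 had a log2 fold change of 0.21 over both sublines (limma, standard error 0.15, adjusted p = 0.407), 0.094 in shBEX2-1 cells and 0.32 in shBEX2-2 cells, neither of which was called. With shControl as the only control GFM1 read 0.088 over both sublines (limma, adjusted p = 0.579), turned to -0.027 in shBEX2-1 cells and read 0.20 in shBEX2-2 cells (limma, adjusted p = 0.0871). TSFM then read 0.18 over both sublines (limma, adjusted p = 0.125).

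Both initiation factors had negative estimates. MTIF3 relative intensity was 3.36 and 3.25 in shControl cells, 4.91 and 3.47 in shNontarget cells, 3.42 and 3.15 in shBEX2-1 cells, and 2.631 and 2.634 in shBEX2-2 cells. The shBEX2-2 arrays were the lowest and close to each other, and the shBEX2-1 arrays overlapped the shControl arrays. The log2 fold change of MTIF3 was -0.33 over both sublines (limma, standard error 0.17, adjusted p = 0.241) and -0.49 in shBEX2-2 cells (standard error 0.16, adjusted p = 0.134). Against shControl alone MTIF3 was lower in shBEX2-2 cells, at -0.33 on the log2 scale (limma, standard error 0.072, adjusted p = 0.00796), and read -0.0097 in shBEX2-1 cells (adjusted p = 0.924) and -0.17 over both sublines (adjusted p = 0.340). Set against each other directly in the 4-vector model, the sublines differed in MTIF3 by -0.32 (limma, standard error 0.19, adjusted p = 0.919), which was not called. MTIF2 relative intensity was 2.01 to 2.77 on the control arrays and 1.83 to 2.08 on the BEX2-knockdown arrays, and the ranges met. Its log2 fold change was -0.24 (limma, standard error 0.13, adjusted p = 0.291), and -0.17 with shControl as the only control (limma, adjusted p = 0.173).

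The MTIF2 probe A_23_P40072 was placed by the array annotation on chromosome 1 of hg19 from 121245173 to 121245232, whereas the MTIF2 gene is on chromosome 2, and RefSeq lists a pseudogene MTIF2P1 on chromosome 1. Whether the probe lies in that pseudogene was not analysed here, and the MTIF2 value is uncertain to that extent.

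The release factors were each read by more than 1 probe, and the probes of MTRF1L moved in opposite directions. For MTRF1L the brighter probe, A_33_P3352449, gave relative intensities of 0.629 and 0.620 in shControl cells, 0.558 and 0.699 in shNontarget cells, 0.831 and 0.706 in shBEX2-1 cells, and 0.858 and 0.752 in shBEX2-2 cells. All 4 BEX2-knockdown arrays were above all 4 control arrays, with a log2 fold change of 0.33 (limma, standard error 0.13, adjusted p = 0.127). With shControl as the only control this probe was called, at 0.33 (limma, adjusted p = 0.0488), where 33.4% of all genes were. The other probe, A_23_P214882, gave 0.288 and 0.308, then 0.275 and 0.437, in the control cells, and 0.229, 0.229, 0.235 and 0.250 on the BEX2-knockdown arrays. There all 4 BEX2-knockdown arrays were below all 4 control arrays, with a log2 fold change of -0.45 (limma, standard error 0.17, adjusted p = 0.115 over all probes). The array annotation places the brighter probe on chromosome 4 of hg19 from 189660568 to 189660627, and the other on chromosome 6 from 153310574 to 153310633, where the MTRF1L gene lies. The direction of MTRF1L is therefore not settled by these arrays, and the mean of both probes gave -0.059 (limma, adjusted p = 0.825).

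MTRF1 was high on a single array. Its brighter probe gave relative intensities of 0.585 and 0.571 in shControl cells, 0.503 and 1.69 in shNontarget cells, 0.601 and 0.528 in shBEX2-1 cells, and 0.555 and 0.536 in shBEX2-2 cells. The shNontarget replicate 2 array stood above the other 7, and the second MTRF1 probe was highest on the same array, at 0.338 against 0.124 to 0.187. The log2 fold change of MTRF1 was -0.40 (limma, standard error 0.35, adjusted p = 0.512) and 0.0070 (limma, adjusted p = 0.968) without that array. With shControl as the only control it was -0.060 (limma, adjusted p = 0.663). The second probe gave 0.076. The array annotation gives no position for the brighter MTRF1 probe and places the second on chromosome 13, where the gene lies.

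GFM2, which acts after release, had relative intensities of 3.68 and 3.94 in shControl cells, 4.35 and 4.92 in shNontarget cells, 4.58 and 4.52 in shBEX2-1 cells, and 4.28 and 4.24 in shBEX2-2 cells. The shControl arrays were the lowest and the shNontarget replicate 2 array the highest, with the BEX2-knockdown arrays between them. For GFM2 the log2 fold change was 0.069 (limma, standard error 0.12, adjusted p = 0.772) and turned to -0.072 with shNontarget as the only control. Against shControl alone GFM2 was higher in shBEX2-1 cells, by 0.26 (limma, standard error 0.069, adjusted p = 0.0200), and read 0.16 in shBEX2-2 cells (adjusted p = 0.0952) and 0.21 over both sublines (adjusted p = 0.0782). Its second probe gave 0.015 over both sublines.

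**Figure D2:**
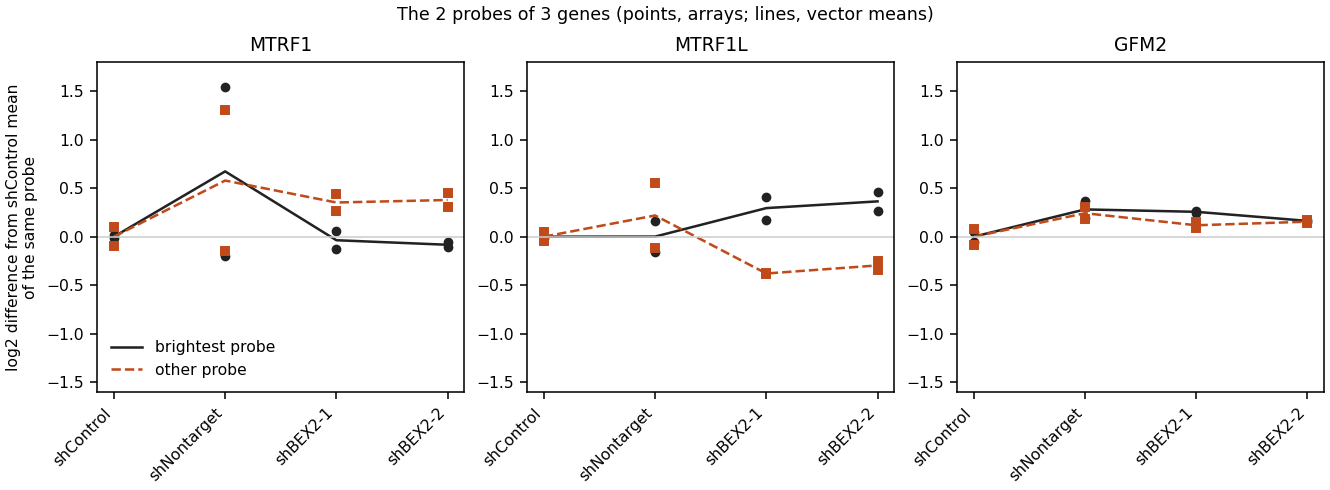
The vertical axis is the log2 difference of each array from the shControl mean of the same probe, and the horizontal axis gives the vectors, for the brightest probe (black) and the other probe (orange) of MTRF1, MTRF1L and GFM2. The MTRF1L probes part in opposite directions in the BEX2-knockdown cells, both MTRF1 probes have their highest point on an shNontarget array, and the GFM2 probes run close together.

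The chaperonin subunits had positive estimates, and HSPE1 had the largest of the 10 genes. HSPE1 relative intensity was 26.8 and 25.3 in shControl cells, 44.7 and 17.7 in shNontarget cells, 41.6 and 41.0 in shBEX2-1 cells, and 49.1 and 50.2 in shBEX2-2 cells. All BEX2-knockdown arrays were above 3 of the 4 control arrays, and only shNontarget replicate 1 reached into their range. The 2 arrays of each vector other than shNontarget were close, while those of shNontarget differed by 1.34 on the log2 scale. The log2 fold change was 0.74, or 1.67-fold (limma, standard error 0.26, 95% confidence interval 0.16 to 1.32, adjusted p = 0.0949), and HSPE1 was not called. Without shNontarget replicate 1 it was 0.98 (limma, adjusted p = 0.00502), when 23.1% of all genes were called, and without shNontarget replicate 2 it was 0.54 (limma, adjusted p = 0.107). Under quantile normalization HSPE1 was called as well (0.76, limma adjusted p = 0.0205), with 14.6% of all genes.

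Against shControl alone, HSPE1 was higher in both sublines, whose hairpins share most of their target stretch. The rise was 1.58-fold in shBEX2-1 cells (log2 fold change 0.66, limma standard error 0.074, adjusted p = 0.000395) and 1.90-fold in shBEX2-2 cells (0.93, limma standard error 0.074, adjusted p = 6.32e-05). In the same fits of 6 arrays, 43.6% and 44.1% of all genes were called. Over both sublines HSPE1 was called at 0.80 (limma, adjusted p = 0.00205), with 33.4% of all genes. The sublines themselves differed by 0.26 in the 4-vector model (limma, standard error 0.41, adjusted p = 1.00), and the interval ran from -0.72 to 1.25. The control vectors differed by 0.11 (standard error 0.41), with an interval from -0.88 to 1.10. In order of the vector means HSPE1 ran from shControl over shNontarget and shBEX2-1 to shBEX2-2. The middle step, shBEX2-1 against shNontarget, was 0.55 (limma, standard error 0.41, adjusted p = 0.525), and none of the 3 steps between neighbours was called in that model.

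HSPD1 relative intensity was 76.7 and 74.8 in shControl cells, 99.1 and 64.97 in shNontarget cells, 84.8 and 88.2 in shBEX2-1 cells, and 88.3 and 93.6 in shBEX2-2 cells. The order of the arrays was much like that of HSPE1, with the BEX2-knockdown arrays above 3 control arrays and the shNontarget arrays at both ends. HSPD1 had a log2 difference of 0.19, or 1.14-fold (limma, standard error 0.16, adjusted p = 0.510). Against shControl alone HSPD1 was 1.20-fold higher in shBEX2-2 cells (log2 fold change 0.26, limma standard error 0.081, adjusted p = 0.0314) and read 0.19 on the log2 scale in shBEX2-1 cells (limma, adjusted p = 0.0917) and 0.23 over both sublines (limma, adjusted p = 0.0775). The highest HSPD1 intensity was 74120, and no spot of any array was saturated.

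Over the 8 arrays HSPD1 and HSPE1 correlated with Pearson r = 0.948, the highest of the 45 pairs of the 10 genes, and with 0.969 over the 6 arrays without shNontarget. TSFM followed both, with 0.947 for HSPD1 and 0.924 for HSPE1, and 0.811 and 0.909 over the 6 arrays. MTIF2 and MTIF3 correlated with 0.882 over 8 arrays and with 0.625 over 6. The arrays share a slide and a scaling and fall into groups, so that these values only describe them. TUFM, whose r with HSPD1 was 0.648 over 8 arrays, had 0.273 over the 6 arrays.

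HSPD1 and HSPE1 are neighbours that start back to back, 105 bases apart on chromosome 2. Whether this arrangement bears on their correlation was not tested. The stretch between their starts is shown because of that correlation. It is taken from RefSeq (GRCh38.p14, chr2:197500275-197500378, plus strand, so that HSPE1 begins just after its last base and HSPD1 leaves to the left on the other strand). Capitals mark CACGTG, the E-box that USF factors bind.
HSPD1-HSPE1 interval: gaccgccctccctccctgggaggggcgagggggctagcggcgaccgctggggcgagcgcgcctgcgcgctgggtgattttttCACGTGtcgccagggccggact

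This interval has a GC content of 74.0%. Both genes hold the motif in their windows of 300 bases, from 250 before to 50 after a start, because the windows overlap, and no other of the 10 genes held it. Of 35116 such windows over all genes 7.26% held CACGTG, which reads the same on both strands. The heat shock element core GAANNTTC, likewise the same on both strands and found in 6.77% of all windows, was in a second HSPD1 window and an MTRF1 window but not in this interval.

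TUFM, GFM1, GFM2 and MTRF1L share another motif. The 40 bases before each start are shown, from RefSeq (GRCh38.p14), because CCGGAAGT, the kind of site that ETS factors bind, lies close to the start in all 4 and in no other of the 10 genes. Capitals mark it, and in MTRF1L it reads on the other strand.
TUFM (chr16:28846349-28846388, minus strand): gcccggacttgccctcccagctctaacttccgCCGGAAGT
GFM1 (chr3:158644487-158644526, plus strand): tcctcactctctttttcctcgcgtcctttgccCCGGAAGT
GFM2 (chr5:74767118-74767157, minus strand): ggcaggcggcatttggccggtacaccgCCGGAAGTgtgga
MTRF1L (chr6:153002710-153002749, minus strand): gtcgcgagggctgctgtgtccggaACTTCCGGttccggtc

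Over all windows 4.14% held CCGGAAGT on either strand. The matches begin 8 bases before the start in TUFM and GFM1, 13 in GFM2 and 16 in MTRF1L. Over the 8 arrays the levels of the 4 genes correlated in their 6 pairs with r from -0.59, for TUFM and MTRF1L, to 0.361, for GFM2 and MTRF1L. Over the 6 arrays without shNontarget GFM2 and MTRF1L had 0.738. The remaining pairs ran from -0.146, for TUFM and GFM1, to 0.221, for GFM1 and MTRF1L. MTRF1L is represented here by its brighter probe, which moved opposite to its other probe. TUFM alone of the 10 genes also held TGACGTC, the core of a cAMP response element, which 3.45% of all windows held. A match describes the letters of a window and does not show that a factor binds there.

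The HSPE1 probe carries a doubt of its own. The array annotation places A_23_P56922 on chromosome 15 of hg19 from 91178165 to 91178224, while the HSPE1 gene is on chromosome 2. RefSeq lists 28 HSPE1 pseudogenes by name, of which HSPE1P3 is on chromosome 15, and 22 HSPD1 pseudogenes. The HSPD1 probe A_32_P25273 was placed on chromosome 2 from 198351381 to 198351440. Transcripts of a pseudogene and of the gene cannot be told apart by a probe that matches both, and this was not analysed here.

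**Figure D3:**
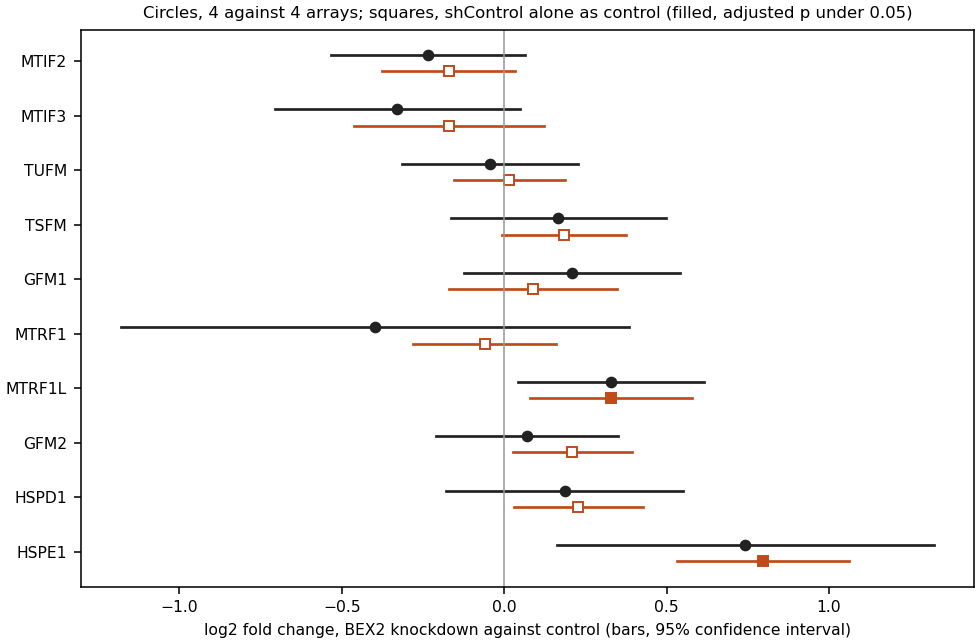
The horizontal axis is the log2 fold change of BEX2-knockdown against control arrays with its 95% confidence interval, for 4 against 4 arrays (black circles) and with shControl as the only control (orange squares, filled where the adjusted p is under 0.05). HSPE1 and MTRF1L are the genes with filled squares, MTRF1L by its brightest probe only, and no circle was called.

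Each vector was then fitted separately, with 1 spread shared by all arrays. None of the 10 genes passed the moderated F test over the 4 vectors, where 6.76% of all genes did, and the smallest adjusted p was 0.284, for MTIF3 (limma). None was called in shBEX2-1 cells against both control vectors, where 6.97% of all genes were, nor in shBEX2-2 cells, where 9.66% were. The median of the 10 genes was 0.10 in shBEX2-1 cells and 0.12 in shBEX2-2 cells, and both sublines share the control arrays. The largest differences were those of HSPE1, 0.61 in shBEX2-1 cells (limma, adjusted p = 0.377) and 0.87 in shBEX2-2 cells (limma, adjusted p = 0.201). Between shBEX2-2 and shBEX2-1 cells none of the 10 was called, with 2 of all genes called (0.00977%) and 1492 at an unadjusted p under 0.05 by limma. Between shNontarget and shControl cells no gene at all was called, with 1567 at an unadjusted p under 0.05 by limma, and 9 of the 10 genes read higher in shNontarget cells.

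In all 10 genes the shNontarget arrays were farther apart than the arrays of any other vector. Their difference, replicate 1 minus replicate 2, ran from -1.75 for MTRF1 to 1.34 for HSPE1. Of the 10 genes, 5 had their highest value of the 8 arrays on shNontarget replicate 1, and 5 had their lowest on shNontarget replicate 2. In the models of 4 vectors without shNontarget replicate 1, limma called 4 of the 10 genes in shBEX2-1 cells (52.9% of all genes) and 7 in shBEX2-2 cells (51.5%). Without replicate 2 it called 4 (52.6% of all genes) and 5 (54.5%), and HSPE1 was in each of these 4 sets. The control vectors then differed in 5 of the 10 genes (45.2% of all genes) without replicate 1 and in 6 (46.3%) without replicate 2. Between the sublines MTIF3 alone was called in each of these models, lower in shBEX2-2 cells, where 14.4% and 14.7% of all genes were called. Under quantile normalization HSPE1 and MTIF3 were called in shBEX2-2 cells (10.8% of all genes), and none of the 10 in shBEX2-1 cells (7.8%) or between the sublines (0.0831%). With shControl as the only control, the genes called were GFM2 and HSPE1 in shBEX2-1 cells (43.6% of all genes), and HSPD1, HSPE1, MTIF3, MTRF1L and TSFM in shBEX2-2 cells (44.1%), with TUFM in neither.

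**Figure D4:**
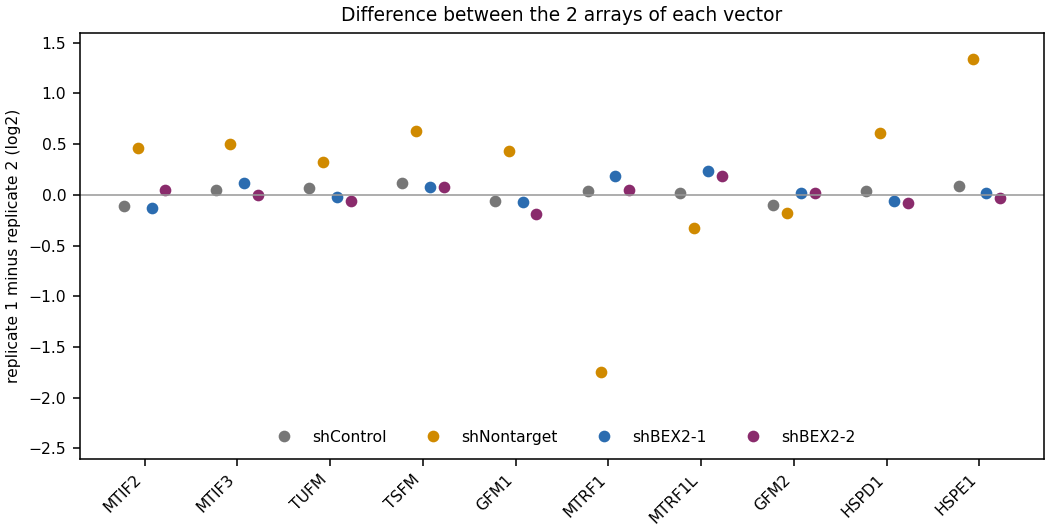
The vertical axis is the log2 difference between replicate 1 and replicate 2 of each vector, for the 10 genes on the horizontal axis. The shNontarget points lie farthest from zero in every gene, down to -1.75 for MTRF1 and up to 1.34 for HSPE1.

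The other mitochondrial proteins that the study lists with TUFM and HSPD1 as candidate BEX2 partners are IVD, which acts in leucine breakdown, and PECR, an enoyl-CoA reductase. IVD relative intensity was 3.19 to 4.08 on the control arrays and 4.51 to 4.97 on the BEX2-knockdown arrays, without overlap. Its log2 fold change was 0.35 (limma, standard error 0.12, adjusted p = 0.0885). PECR ran from 0.141 to 0.240 on the control arrays and from 0.274 to 0.326 on the BEX2-knockdown arrays, again without overlap, with 0.62 on the log2 scale (limma, standard error 0.18, adjusted p = 0.0518). Neither was called in the 4 against 4 fit, and 11.4% of all tested genes were likewise higher without overlap. Against shControl alone both were called in both sublines, where 43.6% of all genes were called in shBEX2-1 cells and 44.1% in shBEX2-2 cells. IVD read 0.36 (limma, adjusted p = 0.00649) in shBEX2-1 cells and 0.29 (0.0140) in shBEX2-2 cells. PECR read 0.51 (limma, adjusted p = 0.00898) and 0.60 (0.00388) in the same order.

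Around the 10 genes, 159 genes of related groups could be tested. Of these, 4 were called between the BEX2-knockdown and control arrays, 1 higher and 3 lower, where 12.9% of all genes were called. With the replicate number as a block the count was 7 (12% of all genes), with shControl as the only control 74 (33.4%), and with shNontarget as the only control 0 (1.67%). It was 0 without shBEX2-1 replicate 1 (7.5% of all genes) or shBEX2-2 replicate 1 (6.08%). Without replicate 2 of shBEX2-1 (8.32%) or of shBEX2-2 (6.71%) it was 2. Without shControl replicate 1 (6.58%) or shControl replicate 2 (6.84%) it was 1. It was 48 without shNontarget replicate 1 (23.1%) and 23 without shNontarget replicate 2 (21%). Of 21 other mitochondrial translation factors, OXA1L was the only gene called. OXA1L inserts newly made proteins into the inner membrane, and it fell by 0.69 on the log2 scale (limma, standard error 0.16, adjusted p = 0.0228), with control arrays between 1.51 and 2.16 and BEX2-knockdown arrays between 0.92 and 1.23 on the normalized log2 scale. The list had 12 genes higher and 9 lower and a median of 0.045. Of 18 mitochondrial chaperones and proteases, LONP1 was the only gene called. This matrix protease fell by 0.50 (limma, standard error 0.12, adjusted p = 0.0302), between 0.39 and 0.81 on the BEX2-knockdown arrays and between 1.02 and 1.18 on the control arrays. The list's median was -0.065, with 6 genes higher and 12 lower. Both genes were also called with shControl alone, but not with shNontarget alone (limma, adjusted p = 0.135 and 0.155) or with the median of the array as the scale (0.107 and 0.118).

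The translation factors among the 10 genes work with the mitochondrial ribosome. Of its protein genes limma called 0 of 82, where 12.9% of all genes were called. Of the 82, 60 read higher and 22 lower, with a median of 0.23 where that of all genes was 0.027. Their log2 fold changes ran from -0.54 (MRPL10) to 0.81 (MRPS17), genes named here only as the ends of the range. The medians were 0.27 in shBEX2-1 cells, 0.24 in shBEX2-2 cells and 0.072 between the control vectors. The lowest adjusted p of the list was 0.0507. With shControl as the only control 41 of the 82 were called higher and 4 lower, where 33.4% of all genes were called, and the median was 0.27. Without shNontarget replicate 1 the called genes were 32 higher and 0 lower (23.1% of all genes), with a median of 0.40, and without shNontarget replicate 2 they were 3 higher and 4 lower (21%), with a median of 0.11. Quantile normalization gave 3 higher and 1 lower (14.6%). With shNontarget as the only control limma called 0 of the 82 (1.67% of all genes), and the median was 0.21. The count thus depended on which control arrays were used. The median stayed above that of all genes in each of these fits, at 0.11 against 0.054 without shNontarget replicate 2. All these fits share the BEX2-knockdown arrays, so they do not repeat the result independently.

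Of 15 tested genes of mitochondrial DNA maintenance and transcription none was called (median -0.051), and none of the 8 subunits of TRiC, the cytosolic chaperonin (median 0.065). Of 13 cytosolic elongation and release factors EIF5A was called higher, by 1.25 (limma, standard error 0.26, adjusted p = 0.0148), and EEF1A2 was lower, at -1.18 (limma, standard error 0.29, adjusted p = 0.0298). The normalized log2 values of EIF5A were 0.82 to 2.07 on control arrays and 2.73 to 3.13 on BEX2-knockdown arrays. Those of EEF1A2 were -0.34 to 0.90 on control arrays and -1.04 to -0.34 on BEX2-knockdown arrays, and met at shNontarget replicate 2. EIF5A, which helps the cytosolic ribosome over difficult stretches, and EEF1A2, a tissue-restricted form of the cytosolic counterpart of TUFM, both have close relatives, so that their values are uncertain to the extent that a probe reads a relative. The list's median was -0.28, with 3 genes higher and 10 lower. With shNontarget alone neither gene was called (limma, adjusted p = 0.0879 and 0.258). With the median of the array as the scale EEF1A2 was not called (limma, adjusted p = 0.0596).

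**Figure D5:**
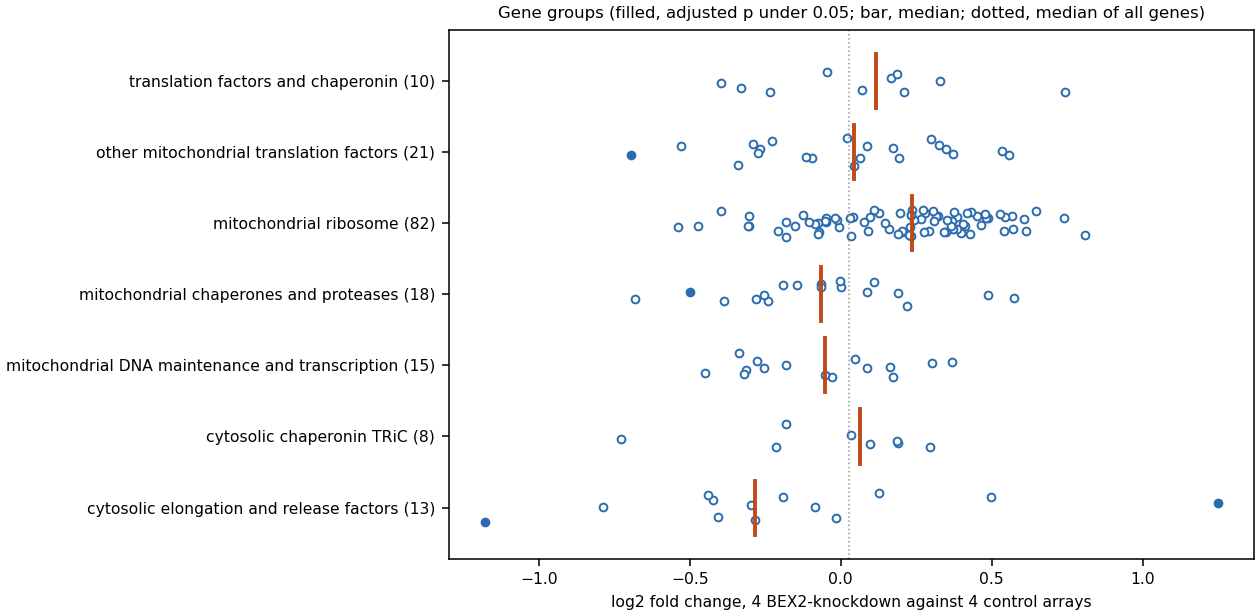
The horizontal axis is the log2 fold change of the 4 BEX2-knockdown against the 4 control arrays, and each point is a gene of the group on the vertical axis (filled where the adjusted p is under 0.05, bar at the median, dotted line at the median of all genes, 0.027). The median of the mitochondrial ribosome lies at 0.23 with no filled point, and the filled points are OXA1L, LONP1, EIF5A and EEF1A2.

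Among the biliary markers KRT8 was called higher in BEX2-knockdown cells (1.02, limma standard error 0.22, adjusted p = 0.0165), and the other 5 were not called, with SOX9 at -0.38. With shNontarget as the only control KRT8 was not called (1.25, limma adjusted p = 0.0711). The markers of other cell types had 0 of 4 called by limma. What these movements have to do with the values of the 10 genes was not tested.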

How the data were processed

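RNA of HuCCT1 cells with 4 vectors was hybridized to 8 single-colour Agilent arrays, 2 for each vector. The authors labelled total RNA with Cy3 and read the arrays with Agilent Feature Extraction 10.7.3.1, per the submitters' processing notes. The deposited intensity had background removed and was detrended within each array but not scaled between arrays, and a deposited series table repeats it to within 0.497%. Control spots and non-uniform spots were left out here. Intensities were taken to log2, each array's 75th percentile was subtracted, and replicate spots were averaged. Probes were kept if at least 50% of their spots were well above background on at least 4 arrays, and a gene was represented by its brightest probe. Each array had 58717 spots, of which 59.8% to 64.6% were well above background. The number of arrays limits the precision, as does the spread between the shNontarget arrays.

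Tests used limma 3.58.1 (lmFit, then eBayes with an intensity trend) in R 4.3.3 with statmod 1.5.0. Benjamini-Hochberg adjustment ran over all tested genes, and an adjusted p under 0.05 was a call. One fit set 4 BEX2-knockdown against 4 control arrays, and a second had the 4 vectors. The fits were tested on simulated data. Named are the 10 genes, BEX2, the other BEX2 partners, the 2 largest called rises and falls of each list, the 3 genes most like TUFM and the 1 most opposed, and the biliary markers. The members and lists were chosen with earlier results of these data known. Alternatives covered scaling, background correction, filters, probes, the replicate number as a block, other tests, each control vector alone and each array left out. Probe positions are those of the array annotation (hg19), and sequences come from RefSeq tables (GRCh38.p14), in which all 10 genes had a promoter window. Python 3.11.15 with pandas 2.3.3 and matplotlib 3.10.9 served for reading and drawing.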

Additional observations from a re-analysis of the deposited data

Results flagged for a closer look

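For the 10 genes and BEX2, the 4 control arrays and the 4 BEX2-knockdown arrays were each examined by Dixon's ratio, the gap of the outermost array to its nearest neighbour over the range of the group. It was past the 95% limit in 3 of 22 groups, where chance gives about 1 in 20 if groups are independent. These 22 are not, since all genes were read on the same arrays and the control arrays pool shControl and shNontarget. The count is therefore only a description. All 3 lay among the control arrays and all were shNontarget arrays. MTIF3 was high on shNontarget replicate 1 (2.30 on the normalized log2 scale, while the other 3 lay at 1.70 to 1.79), the ratio being 0.846. GFM1 was low on shNontarget replicate 2 (0.98 against 1.41 to 1.47), with a ratio of 0.880. MTRF1 was high on shNontarget replicate 2 (0.76 against -0.99 to -0.77), with a ratio of 0.875.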

How the results depend on the processing

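Under 24 or 25 alternatives a gene, MTIF2, MTIF3, TSFM, GFM1, HSPD1 and HSPE1 kept their direction in every one. Many of these could not turn it. The filters, the blocks, the other tests and the mean of probes left the log2 fold change of these genes as it was. Those that could move it were the scaling, the background correction, the choice of control vector and the arrays left out. TUFM turned to 0.030 without shNontarget replicate 1 (from -0.078 without shNontarget replicate 2) and to 0.016 with shControl alone, GFM2 to -0.072 with shNontarget alone, MTRF1 to 0.0070 without shNontarget replicate 2 (-0.58 without replicate 1) and to 0.076 with its other probe, and MTRF1L to -0.059 with the mean of its probes and to -0.45 with its other probe. The cause was not tested. The number of the 10 genes called between BEX2-knockdown and control arrays was 0. It was 1 with quantile normalization (14.6% of all genes), 2 with shControl alone (33.4%) and 0 to 1 when 1 array was left out (6.08% to 23.1%). In the models of 4 vectors, leaving out 1 array left a single array for its vector. Calls among the 10 genes arose there only without 1 of the shNontarget arrays, when calls were also many over all genes. With shControl alone, an alternative chosen after seeing the data, 2 of the 10 genes were called in shBEX2-1 (43.6% of all genes) and 5 in shBEX2-2 cells (44.1%). Quantile normalization called 2 of the 10 in shBEX2-2 cells (10.8%). The 4 called genes of the related lists (12.9% of all genes called) became 12 with quantile normalization (14.6%) and 2 with the median (9.98%). They became 7 with probes well above background on all 8 arrays (14%) and 12 with the vector as a random block (16.7%). With shControl alone there were 74 (33.4%), with shNontarget alone 0 (1.67%) and by rank product 1 (4.09%). When 1 array was left out there were 0 to 48 (6.08% to 23.1%).

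The replicate numbers are shared by the vectors. In the deposited names each number has a day of its own, of unstated meaning, and the labels do not name it. The replicate differences of 2 vectors correlated across genes with r from -0.063 to 0.26, over 0.1 in 5 of 6 pairs of vectors, and the block was kept as an alternative. With the replicate number as a block limma called 2458 genes in place of 2646, 0 of the 10 genes and 7 of the related lists in place of 4. The fall of BEX2 lost the threshold with normexp correction (-0.45, limma adjusted p = 0.0796) and with shNontarget alone (-1.83, limma adjusted p = 0.0787). All 10 genes were well above background on every array. The standard error of TUFM was 0.12 with 8 arrays and 0.073 with the 6 arrays without shNontarget.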
